A study of Mus musculus with 17 samples.

Results

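Cytokines and chemokines that pass between sensory neurons and immune cells were followed in mouse dorsal root ganglia (DRGs) before and after nerve injury, with and without Mtor in the sensory neurons. The members were 10 genes fixed by name and not by their levels: Csf1, Il34, Il1b, Il18, Tnf, Tgfb1, Ccl2, Cx3cl1, Cxcl10 and Cxcl12, out of 19152 genes in the tables. RNA-Seq of 4 lumbar DRGs per mouse, L4 and L5 of both sides, gave 17 libraries of 1 mouse each. They were 4 of Adv-Cre::Mtorfl/fl mice (Mtor-cKO) 7 days after bilateral spared nerve injury (SNI), 4 of Mtor-cKO mice at baseline, 5 of Mtorfl/fl mice 7 days after SNI and 4 of Mtorfl/fl mice at baseline, all adult C57BL/6 mice. Both genotypes carried loxP-flanked Mtor, and the Mtorfl/fl mice, which the labels call WT, lacked Cre. The Advillin promoter drives Cre in peripheral sensory neurons, so macrophages, satellite glia, Schwann cells, fibroblasts and vessels of Mtor-cKO ganglia kept an intact Mtor gene. In SNI the tibial and common peroneal branches of the sciatic nerve are cut and the sural branch is spared, so each ganglion held both injured and uninjured neurons.

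Csf1 and Il34 encode the ligands of the receptor CSF1R, on which macrophages and microglia depend for survival and proliferation. Sensory neurons with a cut axon are known to make CSF1, and neurons are among the known sources of IL-34. Il1b, Il18 and Tnf encode inflammatory cytokines of myeloid cells, of which IL-1β and IL-18 are made as inactive precursors that caspase-1 cleaves, and Tgfb1 encodes a cytokine that is stored in a latent complex in the matrix. Ccl2 draws monocytes through CCR2, Cx3cl1 (fractalkine) is a membrane-bound chemokine for CX3CR1 on macrophages and microglia, Cxcl10 is an interferon-induced ligand of CXCR3, and Cxcl12 is a stromal ligand of CXCR4 and ACKR3.

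Each gene had an RSEM expected count and a level in FPKM, fragments scaled to transcript length and library size, which allows levels to be compared between genes. Expected counts summed to 17060848 to 21076473 per library. The counts entered edgeR's quasi-likelihood F test for the 13408 genes that averaged 1 FPKM or more in some group, with Benjamini-Hochberg adjustment over all of these genes. Here a gene passed when its adjusted p was under 0.05, and it was called when its change was also more than 2-fold. The interaction of injury and genotype had no fold threshold. Of the 10 members, 9 met the filter on level and Tnf did not, so its estimates come from the same fit over the 19061 genes with any count.

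Mtor averaged 4.96 ± 1.06 FPKM in Mtor-cKO and 9.94 ± 3.41 FPKM in Mtorfl/fl DRGs at day 7 (SD, n = 4 and n = 5), and 4.80 ± 1.53 FPKM in Mtor-cKO and 11.0 ± 3.34 FPKM in Mtorfl/fl DRGs at baseline (SD, n = 4 each). The genotypes did not overlap, and Mtor differed between them by -0.91 on the log2 scale (edgeR adjusted p = 0.0227) at day 7 and by -1.10 (edgeR adjusted p = 0.0154) at baseline. All 10 neuron markers were present in the tables, and their summed level was 5666 to 6248 FPKM in Mtor-cKO and 6679 to 8019 FPKM in Mtorfl/fl libraries. Much of that gap was Nefl, the neurofilament light chain, at 793 FPKM in Mtor-cKO and 1979 FPKM in Mtorfl/fl DRGs at baseline. At that time 5 of the 10 markers were above 0 in log2 fold change between genotypes, with a median of -0.03. At day 7, 3 of the 10 were above 0, with a median of -0.23. There 4 markers passed as lower in Mtor-cKO DRGs, Nefl among them, where 26.0% of all genes passed. Some libraries stood apart. Mtorfl/fl replicates 1 and 2 were the lowest of their group in macrophage markers at both times, with summed levels of 184 and 192 FPKM against 401 to 589 FPKM in the other day 7 libraries, and of 90.2 and 86.4 FPKM against 338 and 416 FPKM in the other baseline libraries. Mtor-cKO day 7 replicate 1 and Mtor-cKO baseline replicate 2 held the most skeletal muscle transcripts, 439 and 494 FPKM summed over 7 markers, against at most 73.5 FPKM in any other library. In whole ganglia, fewer cells of a type and less RNA per cell cannot be told apart.

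The sequences below are the 250 bases before the start of Csf1 and of Cx3cl1 (RefSeq, GRCm38.p6), shown because these genes carried the clearest change with injury and with genotype. They read 5′ to 3′ on the strand of the gene, and capitals mark matches to the motifs searched. Promoters were at hand for 8 of the 10 members.
Csf1, chr3:107760470-107760719, minus strand: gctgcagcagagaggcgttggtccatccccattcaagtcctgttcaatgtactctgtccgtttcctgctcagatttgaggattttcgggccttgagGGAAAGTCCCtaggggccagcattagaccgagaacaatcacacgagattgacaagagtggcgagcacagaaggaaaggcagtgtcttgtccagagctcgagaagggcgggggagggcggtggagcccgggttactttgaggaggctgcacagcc
Cx3cl1, chr8:94771930-94772179, plus strand: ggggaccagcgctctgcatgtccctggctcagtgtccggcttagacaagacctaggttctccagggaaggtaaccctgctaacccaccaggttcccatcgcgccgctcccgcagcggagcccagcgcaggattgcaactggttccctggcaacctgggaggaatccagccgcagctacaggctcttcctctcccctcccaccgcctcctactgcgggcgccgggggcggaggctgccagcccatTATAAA
Both strands were searched for the AP-1 motif TGANTCA, the STAT motif TTCNNNGAA, the TATA box TATAAA, the interferon-stimulated response element (ISRE) and the NF-kappaB motif. In the Csf1 window the only match was an NF-kappaB motif at position -154, read on the minus strand of the window, where -1 is the base before the start, and 7.25% of 32851 promoters hold such a match in 250 bases. In the Cx3cl1 window the only match was TATAAA at position -6, which 12.4% of promoters hold. Among the other members, the Cxcl10 window held an ISRE match, which 2.98% of promoters hold, with an AP-1 match (6.75% of promoters) and NF-kappaB matches, 2 of which overlap. TATAAA stood at position -29 in Tnf and -31 in Il1b, and on the minus strand at -175 in Il18. The Tgfb1 window held an NF-kappaB match at -140. A match describes the letters of these windows and was not tied to any change in level.

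Csf1 was the member that rose with injury, in both genotypes and by more than 2-fold. At day 7 its level was 20.7, 24.4, 21.3 and 16.5 FPKM in Mtor-cKO replicates 1 to 4, against 7.86, 7.98, 7.85 and 8.67 FPKM in Mtor-cKO baseline libraries. The Mtorfl/fl libraries held 20.7, 20.4, 40.6, 25.7 and 18.6 FPKM at day 7, against 7.04, 6.74, 4.96 and 6.72 FPKM at baseline. Every day 7 library lay above every baseline library of either genotype, and Mtorfl/fl day 7 replicate 3 was the highest of all. The log2 fold change of day 7 over baseline was 1.30 (approximate SE 0.21, edgeR adjusted p = 0.00161) in Mtor-cKO and 1.97 (approximate SE 0.21, edgeR adjusted p = 2.3e-05) in Mtorfl/fl DRGs. Csf1 was thus 1 of 9 members called in Mtor-cKO, where 1.16% of all genes tested were called, and 1 of 9 in Mtorfl/fl DRGs, where 1.20% were called and 7.24% passed. Within Mtorfl/fl replicates 1 and 2 alone, a choice made on seeing the data, its log2 fold change was 1.53 (edgeR adjusted p = 2.35e-05).

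**Figure D1:**
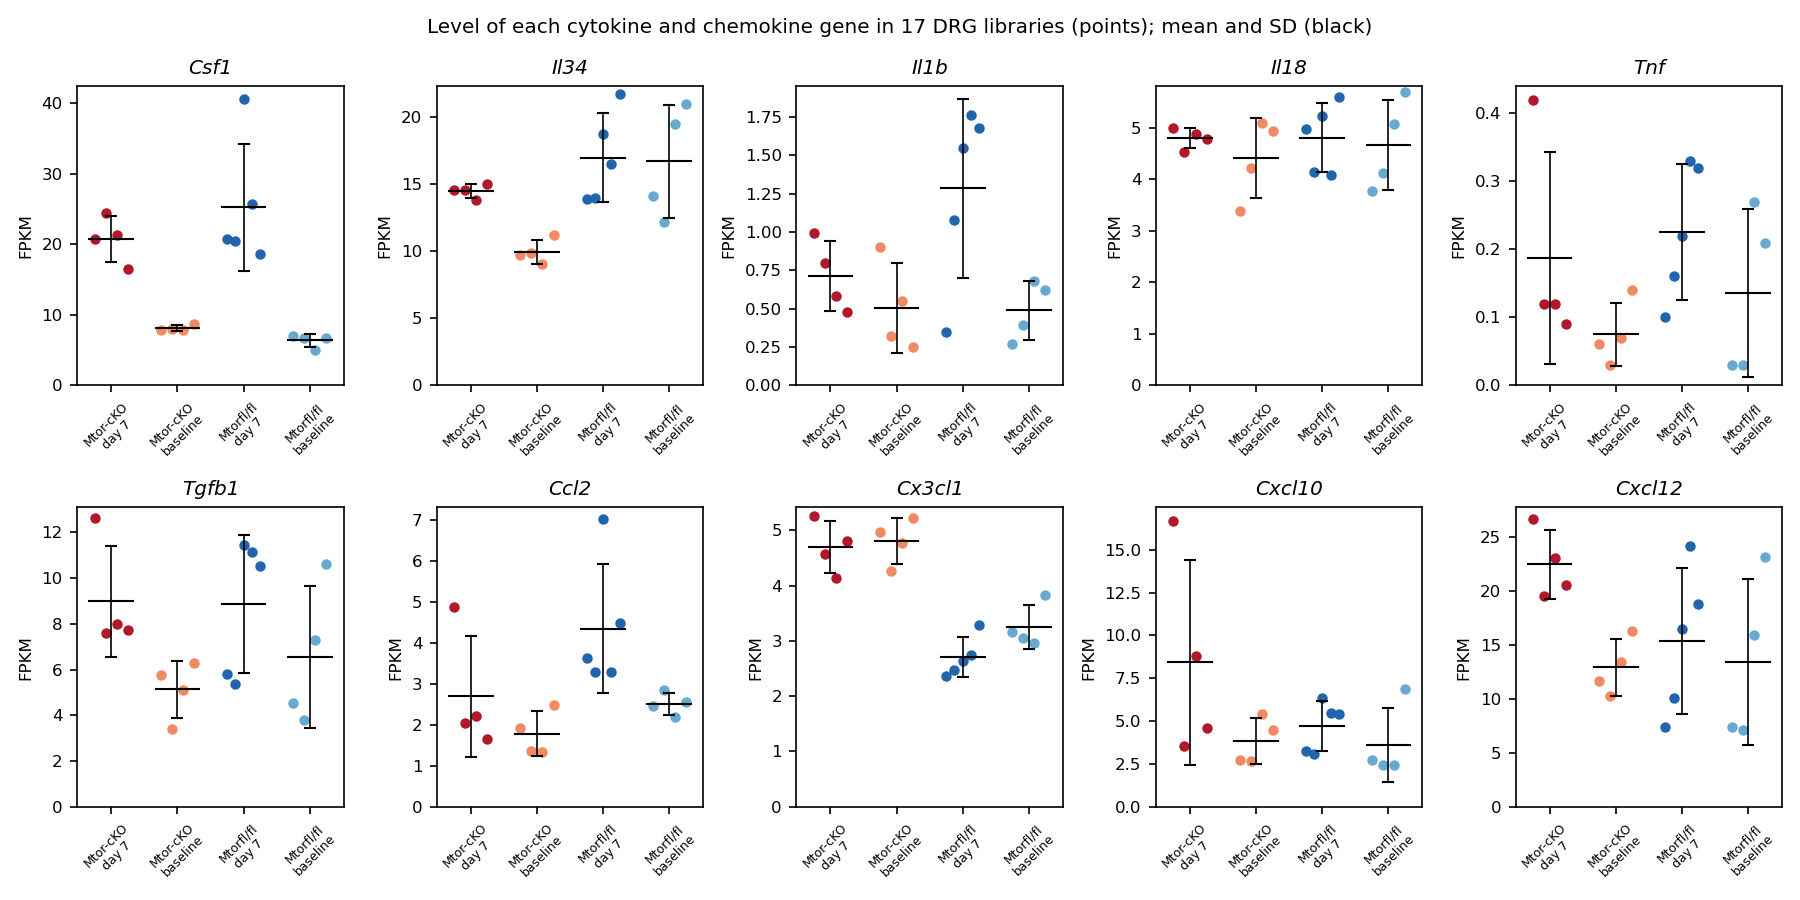
Level in FPKM of each of the 10 cytokine and chemokine genes in the 17 libraries (points), with the mean and SD of each group (black lines). Csf1 at day 7 lies above baseline in both genotypes, and Cx3cl1 lies at 4.14 to 5.27 FPKM in Mtor-cKO libraries and at 2.37 to 3.84 FPKM in Mtorfl/fl libraries.

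The rise of Csf1 was not shown to differ between the genotypes. The interaction, the log2 fold change in Mtor-cKO minus that in Mtorfl/fl DRGs, was -0.67 (approximate SE 0.29, edgeR adjusted p = 0.353). Without Mtorfl/fl day 7 replicate 3 it was -0.43 (edgeR adjusted p = 0.398), and without Mtorfl/fl replicates 1 and 2 at both times it was -1.03 (edgeR adjusted p = 0.112). At day 7, Csf1 averaged 20.7 ± 3.24 FPKM in Mtor-cKO and 25.2 ± 9.02 FPKM in Mtorfl/fl DRGs (SD, n = 4 and n = 5), a log2 fold change of -0.32 (95% interval -0.74 to 0.11, edgeR adjusted p = 0.256). At baseline it averaged 8.09 ± 0.391 FPKM in Mtor-cKO and 6.37 ± 0.948 FPKM in Mtorfl/fl DRGs (SD, n = 4 each). The Mtor-cKO baseline libraries all lay above the Mtorfl/fl ones, but the log2 fold change of 0.35 (approximate SE 0.22, edgeR adjusted p = 0.31) did not pass the test. Over the 17 libraries, genes whose log2 level was most like that of Csf1 included Tubb6, a tubulin (Pearson's r = 0.99), and Mapk6, an atypical MAP kinase (r = 0.979). These values describe libraries that share the same injury groups.

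**Figure D2:**
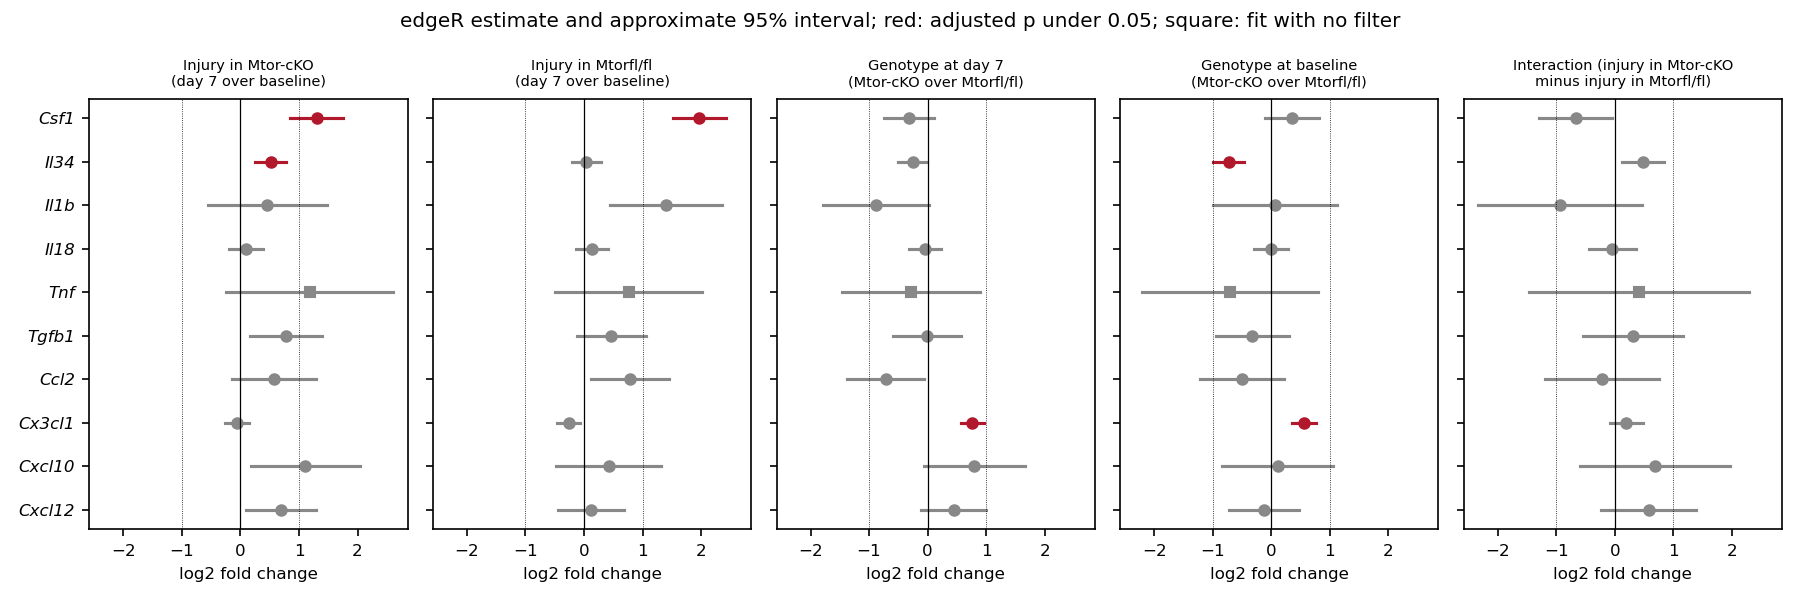
Log2 fold change of each member in 5 comparisons, from edgeR, with the approximate 95% interval (lines). Red marks an adjusted p under 0.05, dotted lines a 2-fold change, and squares the fit with no filter used for Tnf. Csf1 is red in both injury panels, Cx3cl1 in both genotype panels, and Il34 in the panels of injury in Mtor-cKO and of genotype at baseline.

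Il34, the other CSF1R ligand, was lower in Mtor-cKO than in Mtorfl/fl DRGs before injury. It stood at 9.71, 9.84, 9.01 and 11.2 FPKM in Mtor-cKO baseline replicates 1 to 4, against 14.1, 12.2, 19.5 and 20.9 FPKM in Mtorfl/fl baseline replicates 1 to 4. The groups did not overlap, and the log2 fold change was -0.73 (approximate SE 0.12, edgeR adjusted p = 0.00088). Of the 9 members, none was called at baseline in the edgeR test, where 1.65% of all genes were, since no change exceeded 2-fold. At an unadjusted p under 0.05 there were 2, Il34 and Cx3cl1, and DESeq2 called 0 as well. Both also passed the adjusted p, as 15.9% of all genes tested did. Without Mtorfl/fl replicates 1 and 2, the 2 lower libraries of their group, the log2 fold change of Il34 was -0.96 (edgeR adjusted p = 3.17e-05). Markers of myelinating Schwann cells, such as Mbp, moved with Il34 in part. All 6 were below 0 at baseline, with a median log2 fold change of -0.51, and 2 passed the adjusted p. Their summed level was 3354 to 3637 FPKM in Mtor-cKO and 3323 to 7779 FPKM in Mtorfl/fl baseline libraries, and at day 7 it was 3830 to 5446 FPKM in Mtor-cKO and 2969 to 6147 FPKM in Mtorfl/fl libraries, highest in Mtorfl/fl replicate 5 as Il34 was. Mtorfl/fl baseline replicate 2 was the lowest baseline library in these markers, yet above every Mtor-cKO baseline library in Il34. At day 7 all 6 markers were above 0 between genotypes, with a median of 0.15, whereas Il34 was at -0.25. The part of Schwann cells in the level of Il34 was not tested.

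After injury, Il34 was at 14.5, 14.5, 13.8 and 15.0 FPKM in Mtor-cKO day 7 replicates 1 to 4, all above the Mtor-cKO baseline libraries. In Mtorfl/fl day 7 libraries it was at 13.9, 14.0, 18.7, 16.5 and 21.7 FPKM, within the range of the Mtorfl/fl baseline libraries but for replicate 5, the highest of all. The log2 fold change with injury was 0.51 (approximate SE 0.12, edgeR adjusted p = 0.0208) in Mtor-cKO and 0.04 (95% interval -0.21 to 0.28, edgeR adjusted p = 0.916) in Mtorfl/fl DRGs. The rise in Mtor-cKO DRGs was below 2-fold, and its edgeR adjusted p was 0.05 or above, up to 0.074, in 6 of the 8 fits that left out 1 library of this comparison. It was 0.129 without both libraries highest in skeletal muscle markers. In Mtor-cKO DRGs, 2 of 9 members, Csf1 and Il34, passed the adjusted p, as 6.95% of all genes did. The interaction of Il34 was 0.48 (approximate SE 0.17, edgeR adjusted p = 0.25). It passed with a term for Mtorfl/fl replicates 1 and 2 (0.51, edgeR adjusted p = 0.0137) and without these libraries (0.56, edgeR adjusted p = 0.0392), both chosen on seeing the data.

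At day 7 Il34 averaged 14.5 ± 0.497 FPKM in Mtor-cKO and 16.9 ± 3.31 FPKM in Mtorfl/fl DRGs (SD, n = 4 and n = 5). The log2 fold change was -0.25 (95% interval -0.50 to -0.00, edgeR adjusted p = 0.121). It was -0.40 (edgeR adjusted p = 0.00383) without Mtorfl/fl replicates 1 and 2. The ratio of Csf1 to Il34 in FPKM shows how the 2 ligand genes stood to each other. It was 1.43, 1.68, 1.55 and 1.10 in Mtor-cKO day 7 replicates 1 to 4, against 0.809, 0.811, 0.871 and 0.777 in Mtor-cKO baseline libraries. The same ratio in Mtorfl/fl DRGs was 1.49, 1.46, 2.17, 1.56 and 0.861 at day 7, against 0.499, 0.554, 0.255 and 0.321 at baseline. Csf1 was below Il34 in every baseline library and above it in every day 7 library but Mtorfl/fl replicate 5.

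**Figure D3:**
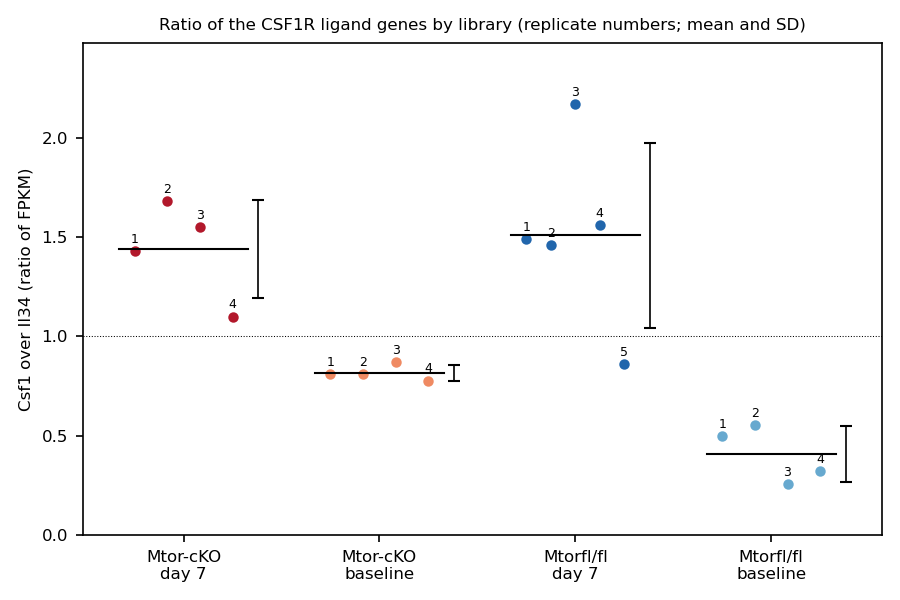
Ratio of the FPKM of Csf1 to that of Il34 in each library (points, numbered by replicate), with the mean and SD of each group. The dotted line marks equal levels; baseline ratios lie between 0.255 and 0.871, and day 7 ratios between 0.861 and 2.17.

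Cx3cl1, the chemokine fractalkine, was higher in Mtor-cKO than in Mtorfl/fl DRGs at both times. At day 7 it was at 5.27, 4.57, 4.14 and 4.81 FPKM in Mtor-cKO replicates 1 to 4, against 2.37, 2.48, 2.64, 2.75 and 3.29 FPKM in Mtorfl/fl replicates 1 to 5. At baseline it was at 4.97, 4.26, 4.77 and 5.23 FPKM in Mtor-cKO libraries, against 3.17, 3.05, 2.96 and 3.84 FPKM in Mtorfl/fl libraries. Every Mtor-cKO library lay above every Mtorfl/fl library of either time. The log2 fold change was 0.77 (approximate SE 0.09, edgeR adjusted p = 3.06e-05) at day 7 and 0.57 (approximate SE 0.10, edgeR adjusted p = 0.00088) at baseline, a 1.70-fold and a 1.48-fold difference.

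Of the 9 members, none was called at day 7 in the edgeR comparison of genotypes, where 2.39% of all genes were, and DESeq2 called 0 too. At an unadjusted p under 0.05 there were 3, Cx3cl1, Ccl2 and Il34. Only Cx3cl1 passed the adjusted p, as 26.0% of all genes did, and it was also the 1 member of 9 whose genotypes did not overlap in FPKM at day 7 (27.3% of all genes). Over all 19 alternative settings its day 7 log2 fold change ran from 0.62 to 0.82 and its adjusted p stayed at or below 0.00104. With injury, Cx3cl1 had a log2 fold change of -0.06 (95% interval -0.26 to 0.14, edgeR adjusted p = 0.718) in Mtor-cKO and of -0.26 (95% interval -0.46 to -0.06, edgeR adjusted p = 0.116) in Mtorfl/fl DRGs. The difference between these was 0.20 (approximate SE 0.13, edgeR adjusted p = 0.551).

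The inflammatory cytokines Il1b and Tnf were low in these ganglia, and neither passed the edgeR test with 1 coefficient per group. Il1b was at 0.99, 0.80, 0.58 and 0.48 FPKM in Mtor-cKO day 7 replicates 1 to 4 (13 to 28 counts), against 0.90, 0.32, 0.55 and 0.25 FPKM in Mtor-cKO baseline libraries (7 to 23 counts). Its level in Mtorfl/fl DRGs was 0.35, 1.08, 1.55, 1.76 and 1.68 FPKM at day 7 (9 to 51 counts), against 0.27, 0.39, 0.68 and 0.62 FPKM at baseline (7 to 17 counts). All Mtorfl/fl day 7 libraries but replicate 1 lay above the Mtorfl/fl baseline libraries, whereas in Mtor-cKO DRGs the times overlapped. Il1b gave a log2 fold change with injury of 0.46 (95% interval -0.55 to 1.48, edgeR adjusted p = 0.572) in Mtor-cKO and 1.40 (95% interval 0.44 to 2.36, edgeR adjusted p = 0.0751) in Mtorfl/fl DRGs. Without Mtorfl/fl day 7 replicate 1 the rise in Mtorfl/fl DRGs was 1.63 (edgeR adjusted p = 0.0162), and DESeq2 called it with all libraries (1.41, adjusted p = 0.0353), as did edgeR with a term for Mtorfl/fl replicates 1 and 2 (1.28, adjusted p = 0.0361).

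Il1b at day 7 averaged 0.713 ± 0.228 FPKM in Mtor-cKO and 1.28 ± 0.585 FPKM in Mtorfl/fl DRGs (SD, n = 4 and n = 5), a log2 fold change of -0.88 (approximate SE 0.43, edgeR adjusted p = 0.141). It was -1.11 (edgeR adjusted p = 0.041) without Mtorfl/fl day 7 replicate 1, -1.20 (edgeR adjusted p = 0.0204) with the term, and -1.26 (edgeR adjusted p = 0.0225) without Mtorfl/fl replicates 1 and 2 at both times. The interaction of Il1b was -0.94 (approximate SE 0.66, edgeR adjusted p = 0.568), so a difference in its response to injury was not shown. Neutrophil markers, which include S100a8 and S100a9, moved with Il1b among the Mtorfl/fl day 7 libraries. Their summed level was 172, 309, 490, 1137 and 1278 FPKM in replicates 1 to 5 and 278 to 554 FPKM in Mtor-cKO day 7 libraries, and their part in the level of Il1b was not tested.

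**Figure D4:**
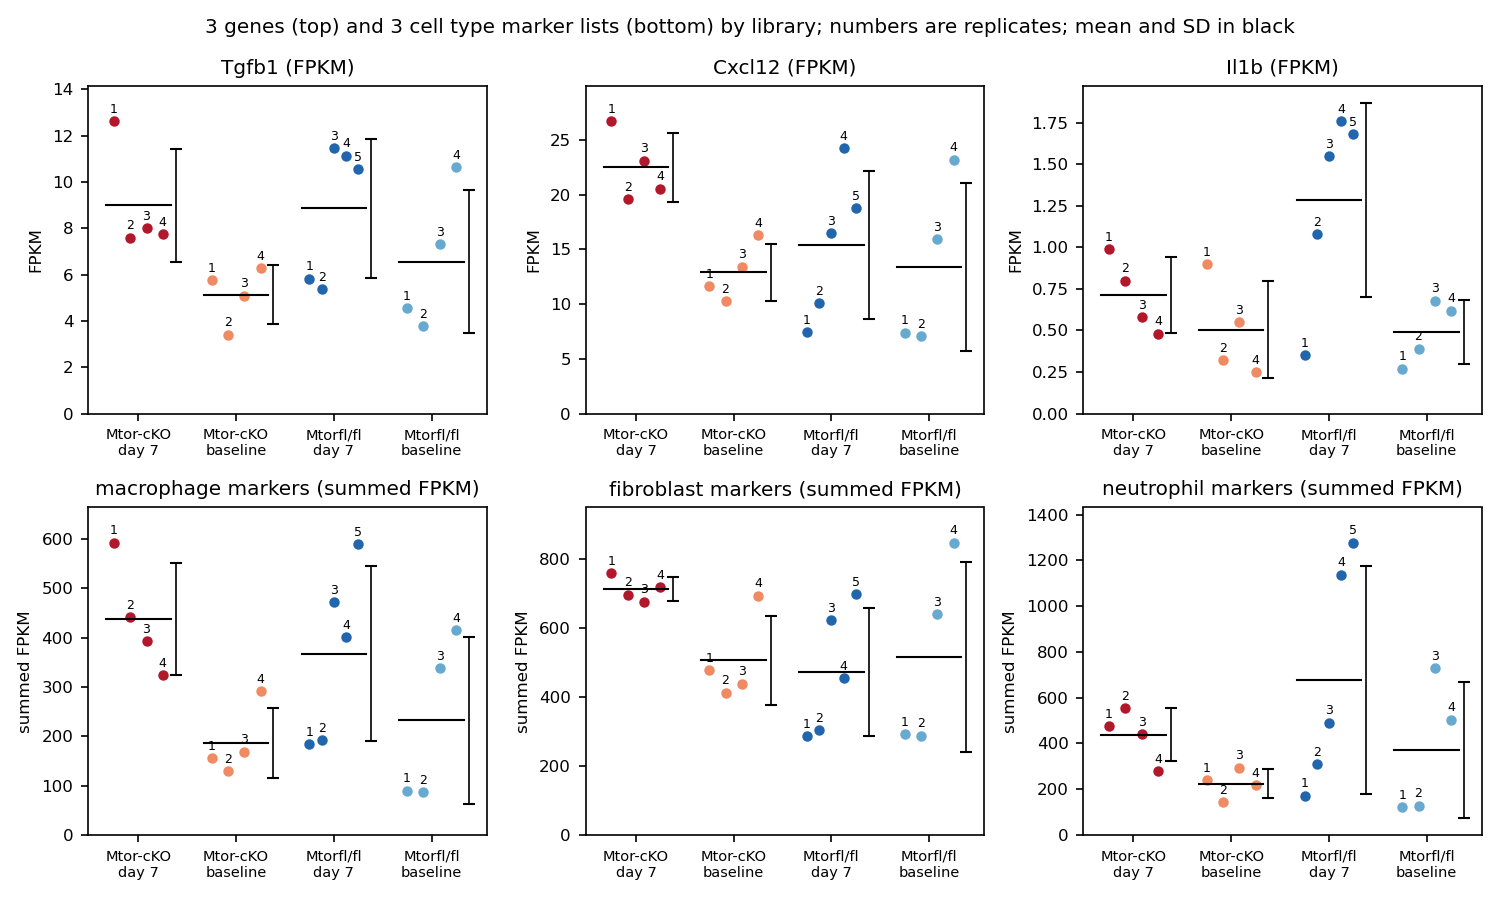
Level in FPKM of Tgfb1, Cxcl12 and Il1b (top) and summed FPKM of the macrophage, fibroblast and neutrophil marker lists (bottom) in each library (points, numbered by replicate), with the mean and SD of each group. Mtorfl/fl replicates 1 and 2 are the lowest of their group in Tgfb1, Cxcl12 and the 3 marker lists, as in macrophage markers, where they lie at 184 and 192 FPKM at day 7 and at 90.2 and 86.4 FPKM at baseline.

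Il18, which neurons, glia and macrophages can all express, passed no edgeR test with 1 coefficient per group. It ranged from 4.54 to 5.00 FPKM in Mtor-cKO day 7, from 3.39 to 5.10 FPKM in Mtor-cKO baseline, from 4.08 to 5.60 FPKM in Mtorfl/fl day 7 and from 3.78 to 5.70 FPKM in Mtorfl/fl baseline libraries. All 4 ranges overlapped. Its log2 fold change with injury was 0.10 (95% interval -0.19 to 0.39) in Mtor-cKO and 0.14 (95% interval -0.14 to 0.41) in Mtorfl/fl DRGs. Between genotypes it was -0.04 (95% interval -0.31 to 0.23) at day 7 and -0.00 (95% interval -0.29 to 0.29) at baseline.

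Tnf was near the limit of detection, with 1 to 14 counts per library. It was at 0.42, 0.12, 0.12 and 0.09 FPKM in Mtor-cKO day 7 replicates 1 to 4, against 0.06, 0.03, 0.07 and 0.14 FPKM in Mtor-cKO baseline libraries. Its level in Mtorfl/fl DRGs was 0.10, 0.16, 0.22, 0.33 and 0.32 FPKM at day 7, against 0.03, 0.03, 0.27 and 0.21 FPKM at baseline. The times overlapped in both genotypes, and the log2 fold change was 1.19 (95% interval -0.24 to 2.61, edgeR adjusted p = 0.33) in Mtor-cKO and 0.77 (95% interval -0.49 to 2.02, edgeR adjusted p = 0.591) in Mtorfl/fl DRGs. Without Mtor-cKO day 7 replicate 1 the value in Mtor-cKO DRGs was 0.45 (edgeR adjusted p = 0.796). Averaged over both genotypes, its log2 fold change with injury was 0.98 (95% interval 0.026 to 1.925, edgeR adjusted p = 0.201). No difference of Tnf passed the edgeR test at these counts and group sizes.

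Tgfb1 was higher in each Mtor-cKO day 7 library than in each Mtor-cKO baseline library, but the difference did not pass the test. It was at 12.6, 7.59, 8.0 and 7.75 FPKM in Mtor-cKO day 7 replicates 1 to 4, against 5.77, 3.41, 5.09 and 6.29 FPKM in Mtor-cKO baseline libraries. Mtorfl/fl DRGs had 5.82, 5.38, 11.5, 11.1 and 10.5 FPKM at day 7, against 4.54, 3.78, 7.30 and 10.6 FPKM at baseline, with overlap. Replicates 1 and 2 were the lowest at both times, as they were in macrophage markers. The log2 fold change was 0.78 (approximate SE 0.29, edgeR adjusted p = 0.112) in Mtor-cKO and 0.46 (approximate SE 0.28, edgeR adjusted p = 0.397) in Mtorfl/fl DRGs. In Mtor-cKO DRGs it passed once Mtorfl/fl replicates 1 and 2 were left out of the fit (0.78, edgeR adjusted p = 0.0164), and it was 0.43 (edgeR adjusted p = 0.594) without the 2 libraries highest in skeletal muscle markers. Over 18 alternative settings the adjusted p in Mtor-cKO DRGs was under 0.05 in 4, and ran from 0.0066 to 0.594. With only the Mtor-cKO libraries in the fit, edgeR called 410 of all genes with injury, against 156 with all 17 libraries. Between genotypes, Tgfb1 differed on the log2 scale by -0.01 (edgeR adjusted p = 0.99) at day 7 and by -0.32 (edgeR adjusted p = 0.521) at baseline. The baseline value was -0.73 (edgeR adjusted p = 0.0284) without Mtorfl/fl replicates 1 and 2.

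In Mtor-cKO DRGs, 4 of 9 members did not overlap between day 7 and baseline, Csf1, Il34, Tgfb1 and Cxcl12, where 29.1% of all genes did not. In Mtorfl/fl DRGs there were 2, Csf1 and Ccl2, where 8.11% did not. At baseline, 3 of 9 members did not overlap between the genotypes, Csf1, Il34 and Cx3cl1, where 19.8% of all genes did not.

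Cxcl12, the stromal CXCR4 ligand, stood at 26.7, 19.6, 23.1 and 20.6 FPKM in Mtor-cKO day 7 replicates 1 to 4, against 11.7, 10.3, 13.4 and 16.3 FPKM in Mtor-cKO baseline libraries. Mtorfl/fl DRGs had 7.42, 10.1, 16.5, 24.2 and 18.8 FPKM at day 7, against 7.39, 7.07, 15.9 and 23.2 FPKM at baseline. The Mtor-cKO times did not overlap, whereas the Mtorfl/fl times did, with replicates 1 and 2 lowest at both. With injury, Cxcl12 gave a log2 fold change of 0.69 (approximate SE 0.28, edgeR adjusted p = 0.136) in Mtor-cKO and 0.12 (approximate SE 0.27, edgeR adjusted p = 0.879) in Mtorfl/fl DRGs. Without Mtorfl/fl replicates 1 and 2 in the fit, Cxcl12 passed in Mtor-cKO DRGs (0.70, edgeR adjusted p = 0.00461) and in the comparison of genotypes at baseline (-0.58, edgeR adjusted p = 0.0149, against -0.13 and 0.807 with them). Over 18 alternative settings, its adjusted p with injury in Mtor-cKO DRGs was under 0.05 in 4, and ran from 0.000938 to 0.501. At day 7 the genotypes differed by 0.45 (95% interval -0.11 to 1.01, edgeR adjusted p = 0.225). Fibroblast markers, such as Col1a1 and Dcn, moved alongside in part. Their summed level was 677 to 759 FPKM in Mtor-cKO day 7 and 414 to 695 FPKM in Mtor-cKO baseline libraries. In Mtorfl/fl day 7 libraries it was 287 and 305 FPKM in replicates 1 and 2, against 624, 455 and 700 FPKM in replicates 3 to 5. Of replicates 3 to 5, replicate 4 was the lowest in these markers but the highest in Cxcl12. All 6 markers were detected, and their part in the level of Cxcl12 was not tested.

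Ccl2, the monocyte chemokine, was at 4.88, 2.04, 2.22 and 1.64 FPKM in Mtor-cKO day 7 replicates 1 to 4, against 1.93, 1.35, 1.34 and 2.49 FPKM in Mtor-cKO baseline libraries. In Mtorfl/fl DRGs it was at 3.63, 3.29, 7.01, 3.29 and 4.48 FPKM at day 7, against 2.46, 2.84, 2.19 and 2.55 FPKM at baseline. The Mtorfl/fl times did not overlap, whereas in Mtor-cKO DRGs only replicate 1 of day 7 lay above the baseline range. With injury, Ccl2 gave a log2 fold change of 0.57 (approximate SE 0.34, edgeR adjusted p = 0.304) in Mtor-cKO and 0.78 (approximate SE 0.31, edgeR adjusted p = 0.162) in Mtorfl/fl DRGs. Between the genotypes Ccl2 differed on the log2 scale by -0.72 (approximate SE 0.31, edgeR adjusted p = 0.0985) at day 7 and by -0.50 (edgeR adjusted p = 0.364) at baseline. The day 7 call turned on 1 library: without Mtor-cKO day 7 replicate 1 it was -1.16 (edgeR adjusted p = 0.0103), which was past both thresholds.

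Cxcl10, the interferon-induced chemokine, was at 16.7, 3.56, 8.81 and 4.61 FPKM in Mtor-cKO day 7 replicates 1 to 4, against 2.74, 2.65, 5.42 and 4.49 FPKM in Mtor-cKO baseline libraries. In Mtorfl/fl DRGs it was at 3.28, 3.08, 6.34, 5.50 and 5.44 FPKM at day 7, against 2.70, 2.44, 2.43 and 6.87 FPKM at baseline. The times overlapped in both genotypes. With injury, Cxcl10 gave a log2 fold change of 1.11 (approximate SE 0.44, edgeR adjusted p = 0.127) in Mtor-cKO and 0.42 (approximate SE 0.42, edgeR adjusted p = 0.663) in Mtorfl/fl DRGs. Without Mtor-cKO day 7 replicate 1 the value in Mtor-cKO DRGs was 0.55 (edgeR adjusted p = 0.472). That library was also the highest of its group in Ccl2, Tgfb1, Cxcl12 and Tnf, in lymphocyte markers (11.2 FPKM summed, against 4.60 to 5.55 FPKM in the other 3), in macrophage markers (593 FPKM, against 324 to 442 FPKM) and in skeletal muscle markers. The part of these cells in its values was not tested.

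Averaged over both genotypes, which uses all 17 libraries, injury called Csf1 alone of the 9 members (log2 fold change 1.64, approximate SE 0.15, edgeR adjusted p = 1.9e-06), where 1.31% of all genes were called. Il34 passed the adjusted p below 2-fold (0.28, approximate SE 0.09, edgeR adjusted p = 0.0411), but in only 10 of 26 alternative settings, over which its adjusted p ran from 0.00121 to 0.115. Tgfb1 (0.62, edgeR adjusted p = 0.0519), Ccl2 (0.68, edgeR adjusted p = 0.0619) and Il1b (0.93, edgeR adjusted p = 0.0717) fell short of it. DESeq2 passed 5 members, these 3 among them, at adjusted p = 0.0241 for Tgfb1, 0.0379 for Ccl2 and 0.0452 for Il1b. The share of all genes that passed in DESeq2 was not counted, so these 5 have no background beside them. In edgeR 2 of 9 members passed, where 13.8% of all genes did. With the fold threshold, DESeq2 called 1 member and 192 of 13408 genes. The median of the 9 members was 0.62, beside -0.00 over all genes tested, with 8 of the 9 above 0. No member passed the edgeR test of the interaction of injury and genotype, as 0.0820% of all genes did, with 0 members called by DESeq2. At an unadjusted p under 0.05 there were 2 members, Csf1 and Il34. The number of all genes that passed the interaction was 11, but 1 to 119 with 1 library left out, 161 with a replicate block, 258 by DESeq2 and 583 with a term for Mtorfl/fl replicates 1 and 2.

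By level, Cxcl12 and Csf1 led the members at day 7 in Mtor-cKO DRGs, with means of 22.5 ± 3.18 and 20.7 ± 3.24 FPKM (SD, n = 4), and their ranges overlapped. In Mtor-cKO baseline DRGs the first places went to Cxcl12 at 12.9 ± 2.60 and Il34 at 9.93 ± 0.897 FPKM (SD, n = 4), which also overlapped. Csf1 led in Mtorfl/fl day 7 DRGs, at 25.2 ± 9.02 FPKM, and Il34 in Mtorfl/fl baseline DRGs, at 16.7 ± 4.19 FPKM (SD, n = 5 and n = 4). Each overlapped the gene after it, Il34 and Cxcl12. Il1b and Tnf were the lowest in all 4 groups.

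Some receptors of these ligands rose with injury, 4 of them by less than 2-fold. Of 18 receptor genes, 15 were tested, and over both genotypes 6 rose and 9 did not pass, with a median log2 fold change of 0.28 beside -0.00 over all genes; 13.8% of all genes passed the adjusted p. Tnfrsf1b, the TNF receptor of immune cells, rose by 1.17 (approximate SE 0.19, edgeR adjusted p = 0.000459), and Csf1r, the receptor of both CSF1 and IL-34, by 1.04 (approximate SE 0.28, edgeR adjusted p = 0.0201). Csf1r was at 17.3 to 21.9 FPKM in Mtor-cKO day 7 libraries, against 6.61 to 13.0 FPKM in Mtor-cKO baseline libraries, and at 8.84 to 24.6 FPKM in Mtorfl/fl day 7 libraries, against 3.67 to 17.2 FPKM in Mtorfl/fl baseline libraries. Il1r1, the signaling IL-1 receptor, rose by 0.75 (approximate SE 0.11, edgeR adjusted p = 0.000288), and Tgfbr1, the kinase subunit of the TGF-beta receptor, by 0.39 (approximate SE 0.07, edgeR adjusted p = 0.000754). Il1r1, Tgfbr1 and Tnfrsf1b passed the adjusted p in each genotype on its own, though in Mtorfl/fl DRGs Tgfbr1 lost it in 6 and Tnfrsf1b in 7 of 9 fits with 1 library left out. Over both genotypes, 3 receptors rose without the 2 muscle-rich libraries, those highest in skeletal muscle markers, where Csf1r had an adjusted p of 0.0858 in edgeR, and 8 without Mtorfl/fl replicates 1 and 2.

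**Figure D5:**
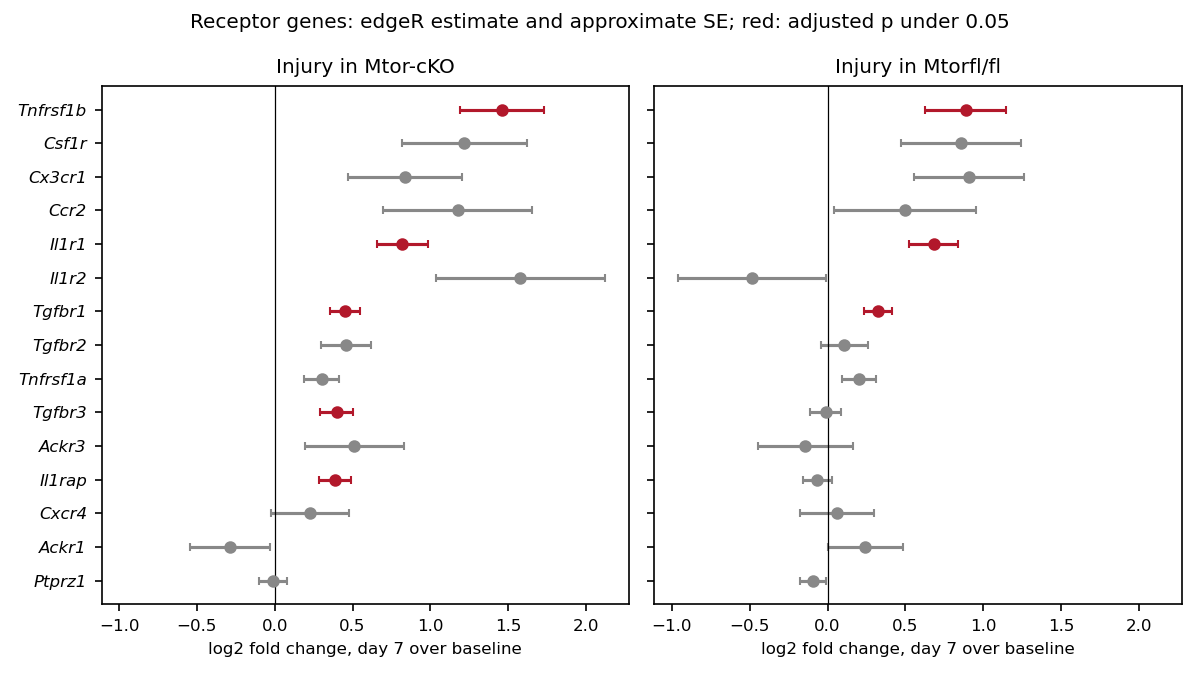
Log2 fold change of day 7 over baseline for the 15 receptor genes tested, in Mtor-cKO (left) and Mtorfl/fl DRGs (right), from edgeR with the approximate SE; red marks an adjusted p under 0.05. Tnfrsf1b lies at 1.46 and 0.89, Il1r1 at 0.82 and 0.68 and Tgfbr1 at 0.45 and 0.33 in Mtor-cKO and Mtorfl/fl DRGs.

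Macrophage markers moved with these receptors, and macrophages are known to express Csf1r and Tnfrsf1b. Over both genotypes, 9 of 14 macrophage markers were called higher and 5 did not pass, with a median log2 fold change of 1.07. Of all genes tested, 1.31% were called there. Without the 2 muscle-rich libraries 1 of 14 passed (median 0.91), and without Mtorfl/fl replicates 1 and 2 there were 13 (median 0.93). Aif1, a calcium-binding protein of macrophages, rose by 1.13 (approximate SE 0.30, edgeR adjusted p = 0.0183) and Adgre1, which encodes F4/80, by 1.18 (approximate SE 0.29, edgeR adjusted p = 0.0108). The marker list summed to 324 to 593 FPKM in Mtor-cKO day 7 and 130 to 291 FPKM in Mtor-cKO baseline libraries, and 184 to 589 FPKM in Mtorfl/fl day 7 and 86.4 to 416 FPKM in Mtorfl/fl baseline libraries. In the edgeR test within 1 genotype, 1 of 14, Mrc1, passed in Mtor-cKO DRGs, where 6.95% of all genes passed. In Mtorfl/fl DRGs 0 of 14 passed, where 7.24% of all genes did. At an unadjusted p under 0.05 there were 13 and 5, and DESeq2 passed 5 and 2. The shares of all genes for these unadjusted and DESeq2 counts were not computed. The part of a larger macrophage share in the receptor levels was not tested.

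Between the genotypes, 1 of the 15 receptor genes was higher and 1 lower in Mtor-cKO DRGs at day 7, and 2 were lower at baseline. Of all genes tested, 26.0% passed at day 7 and 15.9% at baseline. Il1r2, the decoy receptor that binds IL-1 without signaling, was called lower at baseline, with 0.18 to 0.64 FPKM in Mtor-cKO and 0.48 to 2.10 FPKM in Mtorfl/fl libraries (log2 fold change -1.74, approximate SE 0.54, edgeR adjusted p = 0.0397). The groups overlapped, and its adjusted p was 0.05 or above, up to 0.152, in 5 of 8 fits with 1 library left out. Its interaction with injury was 2.06 (approximate SE 0.72, edgeR adjusted p = 0.238).

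Of 16 genes that activate or block the members, 13 were tested. Over both genotypes 2 rose with injury and 11 did not pass, where 13.8% of all genes passed. Ltbp1, which holds latent TGF-beta in the matrix, rose by 0.63 (approximate SE 0.12, edgeR adjusted p = 0.00225). Adam10, a sheddase that frees fractalkine from the membrane, rose by 0.25 (approximate SE 0.06, edgeR adjusted p = 0.0123, which was 0.052 without the 2 muscle-rich libraries). At day 7, 4 were higher and 1 lower in Mtor-cKO than in Mtorfl/fl DRGs, where 26.0% of all genes passed. Without Mtor-cKO day 7 replicate 1, and likewise without Mtorfl/fl replicates 1 and 2, 1 was higher and 1 lower. Il18bp, the secreted inhibitor of IL-18, was called higher, at 1.94 to 5.01 FPKM in Mtor-cKO and 0.93 to 1.74 FPKM in Mtorfl/fl libraries (log2 fold change 1.13, approximate SE 0.36, edgeR adjusted p = 0.0289). Dpp4, a peptidase that trims CXCL10 and CXCL12, was called too (1.09, approximate SE 0.31, edgeR adjusted p = 0.0157). Without Mtor-cKO day 7 replicate 1, Il18bp gave 0.79 (edgeR adjusted p = 0.14) and Dpp4 0.95 (edgeR adjusted p = 0.0574). Casp1, chosen after its values were seen, encodes caspase-1, the enzyme that cleaves the IL-1β and IL-18 precursors. It was lower in Mtor-cKO DRGs at both times, at 2.71 to 3.96 FPKM against 5.02 to 8.41 FPKM in Mtorfl/fl libraries at day 7 (log2 fold change -0.85, approximate SE 0.15, edgeR adjusted p = 0.000934), and at 2.60 to 3.43 FPKM against 3.67 to 5.74 FPKM at baseline (-0.71, approximate SE 0.16, edgeR adjusted p = 0.00718). The genotypes did not overlap in Casp1 at either time, and it passed both without the muscle-rich libraries and without Mtorfl/fl replicates 1 and 2.

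Of 43 other cytokines and chemokines, 24 were tested, and over both genotypes 3 rose, 1 fell and 20 did not pass. Of all genes tested, 13.8% passed in this comparison. Ccl8, a chemokine of the monocyte chemoattractant family, was called higher (2.45, approximate SE 0.64, edgeR adjusted p = 0.017), as was Ccl7 of the same family (1.11, approximate SE 0.34, edgeR adjusted p = 0.041), and the membrane-bound chemokine Cxcl16 rose by 0.76 (approximate SE 0.20, edgeR adjusted p = 0.0208). None of these 3 passed in edgeR without the 2 muscle-rich libraries, where the adjusted p was 0.0897 for Ccl8, 0.193 for Ccl7 and 0.109 for Cxcl16. Tgfb3, another TGF-beta isoform, fell by 0.24 on the log2 scale (approximate SE 0.06, edgeR adjusted p = 0.0124). At day 7, Cxcl9, like Cxcl10 an interferon-induced CXCR3 ligand, was called higher in Mtor-cKO DRGs, at 1.62 to 13.4 FPKM in Mtor-cKO and 0.43 to 1.68 FPKM in Mtorfl/fl libraries (log2 fold change 2.50, approximate SE 0.88, edgeR adjusted p = 0.0468), with overlap. Cxcl9 lost the adjusted p in 6 of 9 fits with 1 library left out, and without Mtor-cKO day 7 replicate 1 its log2 fold change was 1.15 (edgeR adjusted p = 0.361).

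Target genes of interferon, which induces Cxcl10, of TGF-beta and of NF-kappaB were also followed. Of 7 interferon targets, 3 were higher in Mtor-cKO DRGs at day 7 and 4 did not pass, where 26.0% of all genes passed, with a median log2 fold change of 1.08 beside 0.03 over all genes. Without Mtor-cKO day 7 replicate 1, 2 were higher (median 0.89), and without Mtorfl/fl replicates 1 and 2 there was 1 (median 0.78). Their summed level was 192, 98.1, 168 and 86.0 FPKM in Mtor-cKO day 7 replicates 1 to 4 and 40.0 to 80.2 FPKM in Mtorfl/fl day 7 libraries, and Mtor-cKO baseline replicate 4 reached 167 FPKM. In the same comparison 7 of 7 skeletal muscle markers and 3 of 6 endothelial markers were higher, and their part in these levels was not tested. Gbp2, a guanylate-binding protein, was at 11.2 to 27.2 FPKM in Mtor-cKO and 4.08 to 9.57 FPKM in Mtorfl/fl libraries (log2 fold change 1.41, approximate SE 0.33, edgeR adjusted p = 0.00572), without overlap, and Ifit3, an antiviral protein, gave 1.08 (approximate SE 0.38, edgeR adjusted p = 0.0436). Gbp2 stayed called in edgeR without Mtor-cKO day 7 replicate 1 (1.19, adjusted p = 0.0266), whereas Ifit3 did not (0.89, adjusted p = 0.136). Of 4 TGF-beta targets tested, 1 rose with injury over both genotypes, where 13.8% of all genes passed. It was Skil, a feedback repressor of SMAD signaling (0.31, approximate SE 0.08, edgeR adjusted p = 0.0146). At day 7, 2 of the 4 were higher in Mtor-cKO DRGs, or 1 without Mtor-cKO day 7 replicate 1. Skil had an adjusted p of 0.0784 in edgeR without the 2 muscle-rich libraries. Of 7 NF-kappaB targets, 0 passed with injury in the edgeR test over both genotypes and 0 by DESeq2, with 1 at an unadjusted p under 0.05 and a median log2 fold change of 0.24. That one, Relb, a subunit of NF-kappaB itself, gave 0.27 (approximate SE 0.11, edgeR adjusted p = 0.128). For reference, all 7 nerve injury genes rose in both genotypes, Atf3, a stress-induced transcription factor, by 4.77 over both (approximate SE 0.22, edgeR adjusted p = 1.16e-09). Atf3 averaged 127 ± 26.5 FPKM in Mtor-cKO and 124 ± 57.6 FPKM in Mtorfl/fl DRGs at day 7 (SD, n = 4 and n = 5), and the summed injury genes were at 1129 to 1723 FPKM in Mtor-cKO and at 1369 to 3066 FPKM in Mtorfl/fl DRGs, highest in Mtorfl/fl replicate 3, the library highest in Csf1. Between genotypes at day 7, 0 of these 7 genes were above 0 in log2 fold change, with a median of -0.22. Of the 7, 2 passed as lower in Mtor-cKO DRGs, where 26.0% of all genes passed.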

How the data were processed

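Lumbar DRG RNA of 17 mice was sequenced on the BGISEQ-500 platform. Per the labels and the study's methods, the authors aligned reads with HISAT2 2.0.4 and Bowtie2 2.2.5, and deposited RSEM 1.2.12 expected counts per gene (34.2% of them not whole, rounded here) with the FPKM that RSEM derived from them. The methods name the mouse build GRCm38.p5 and the submitters' processing notes mm9, and no coordinate of the files was used. Libraries were grouped by the genotype and time in their labels, and a replicate was a mouse. The tables held 19152 genes, 20 of whose symbols were duplicated or altered and were restored by gene ID, and 1 entry without a gene name with 0 counts, which was left out. Another 8 columns of values per sample carried none of the samples studied here and were not used.

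Expected counts were scaled by TMM and fitted in edgeR 4.0.16 (R 4.3.3) with 1 coefficient for each of the 4 groups, so that all libraries shared 1 estimate of spread. SEs were derived from the estimate and its F statistic, and the 95% intervals from them are approximate. The members and gene lists were chosen with earlier results of these data known. Beyond the members and Mtor, the genes eligible to be named were, of each pathway list, those called in a comparison and up to 4 with the smallest p for injury over both genotypes, of each cell type list the first 3 and any called, and the 3 genes most like a called member. Some genes named by this rule are not reported here. Alternatives were DESeq2 1.42.0, relative log expression scaling, no filter, limma 3.58.1 on log2(FPKM + 1) and log2(FPKM + 0.1), a fit of only the groups compared, a replicate block, no fold threshold, and leaving out each library in turn. 4 further choices were made on seeing the data: a term for Mtorfl/fl replicates 1 and 2, their removal, their use alone, and removal of the 2 libraries highest in skeletal muscle markers. Tables and figures were made with Python 3.11.15, pandas 2.3.3, NumPy 2.4.6, SciPy 1.17.1 and Matplotlib 3.10.9. The edgeR steps were tested on simulated data. Counts per library set the precision of low genes, and intervals cover the spread between mice.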

Additional observations from a re-analysis of the deposited data

Results flagged for a closer look

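In 5 of 40 sets, each a member in a group, 1 library lay far from the others by Dixon's criterion, which chance meets in about 1 of 20 sets. Csf1 was lowest in Mtorfl/fl baseline replicate 3, at 4.96 FPKM, and highest of its group in Mtor-cKO baseline replicate 4, at 8.67 FPKM. Both lay far below every day 7 library. Mtor-cKO day 7 replicate 1 stood apart in Tnf, at 0.42 FPKM (14 counts), and in Tgfb1, at 12.63 FPKM. Cxcl10 was highest in Mtorfl/fl baseline replicate 4, at 6.87 FPKM, against 2.43 to 2.70 FPKM in the other 3.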

How the results depend on the processing

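Of 1243 alternatives of 60 member estimates, 1176 kept direction and call, 12 gained a call, 0 lost one and 55, of 13 estimates no larger than 0.688, changed sign. The cause was not tested. Csf1 alone was called in the main fit, so estimates of the other members had no call to lose. The number of members called with injury in Mtorfl/fl DRGs was 2 with DESeq2 and with a term for Mtorfl/fl replicates 1 and 2, and 1 to 2 with 1 library left out. Without the fold threshold it was 2 with injury in Mtor-cKO, 2 between genotypes at baseline, 1 at day 7 and 2 over both genotypes. At day 7 between genotypes it was 1 with the term, without these 2 replicates and without the 2 muscle-rich libraries, and 0 to 1 with 1 library left out. For the interaction it was 1 with the term and without these replicates, and over both genotypes 1 to 2 with 1 library left out. Same-numbered mice, which the labels do not tie together, did not pair by the criterion that every r of deviations exceed 0.1 (-0.469 to 0.624 over all groups, 9 of 24 above 0.1). Between Mtorfl/fl day 7 and baseline r was 0.0779 to 0.602, with 3 of 4 above 0.1. A replicate block changed no call of a member. With it, Il34 with injury in Mtorfl/fl DRGs was -0.0242 and Tgfb1 at day 7 0.0997. With the term for Mtorfl/fl replicates 1 and 2, Il1b at baseline was -0.383 and Cxcl10 -0.205. Without these replicates, injury in Mtorfl/fl DRGs gave -0.044 for Il34 and -0.00884 for Cxcl12, baseline -0.322 for Il1b and -0.203 for Cxcl10, and the interaction 0.0502 for Il18. On log2(FPKM + 1), Cxcl12 at baseline was 0.0908, Il18 and Tgfb1 at day 7 were 0.00583 and 0.0503, and the interaction of Il18 was 0.0712. On log2(FPKM + 0.1), these were 0.109, 0.0085, 0.0606 and 0.0868, and Il1b at baseline was -0.0229. Il18 at baseline was 0.0143 with no filter and 0.000287 without the muscle-rich libraries, where the interaction was -0.0363 for Tgfb1 and -0.00996 for Cxcl10. With 1 library left out, injury in Mtorfl/fl DRGs ran from -0.0578 to 0.129 for Il34 and from -0.0858 to 0.377 for Cxcl12. Baseline differences ran from -0.363 to 0.302 for Il1b, -0.0699 to 0.0697 for Il18, -0.109 to 0.564 for Cxcl10 and -0.305 to 0.132 for Cxcl12. Day 7 differences ran from -0.0989 to 0.0118 for Il18 and -0.207 to 0.103 for Tgfb1. Interactions ran from -0.659 to 0.0218 for Ccl2, -0.109 to 0.0284 for Il18 and -0.32 to 0.91 for Tnf. Low counts limit Tnf and Il1b.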
